A study of Mus musculus with 22 samples.

Results

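Ly6 genes encode small cysteine-rich proteins of the Ly6/uPAR family, most of which sit on the outer face of the cell membrane on a glycosylphosphatidylinositol (GPI) lipid anchor. Across 6 groups of aged mouse brains, 5 of them (Ly6a, Ly6c1, Ly6c2, Ly6e and Ly6h) are described here. They were taken by symbol as 5 rows of a table of 56748 gene rows. The members were selected on earlier results of these libraries, in which Ly6a and Ly6c1 had been seen to be higher after lipopolysaccharide, so their responses to it are given as a description: which members passed a threshold is stated beside the share of all genes that did, and nothing is read from it.

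Ly6a encodes stem cell antigen 1 and, in the mouse brain, is known mainly as a protein of blood vessel endothelium, as is Ly6c1. Both are also known as interferon-responsive genes. Ly6c2 encodes the form of Ly6C carried by inflammatory monocytes and other blood leukocytes. Ly6e is expressed widely, is induced by interferon and is known for changing the entry of viruses into cells. Ly6h is a neuronal member that binds nicotinic acetylcholine receptors and limits how many of them reach the cell surface.

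The libraries came from whole brains of 22 male C57BL/6J mice aged 17.5 months, 1 library a mouse. GWCBD30LPS (n = 4) and GWCBD30 (n = 4) had been injected at 10 weeks of age with 0.7 mg/kg pyridostigmine bromide, an acetylcholinesterase inhibitor, and 200 mg/kg permethrin, a pyrethroid insecticide, daily for 10 days, as a model of Gulf War illness (GW), and in old age received 30 mg/kg cannabidiol (CBD) in 5% Tween 80/PBS, daily for 28 days and then every other day for 2 weeks. GWVehLPS (n = 4) and GWVeh (n = 4) had the same chemicals and the CBD vehicle, and CtrlVehLPS (n = 3) and CtrlVeh (n = 3) had neither the chemicals nor CBD but the vehicles of both. The 3 groups whose names end in LPS received 0.33 mg/kg E. coli lipopolysaccharide (LPS), a bacterial membrane component that provokes systemic inflammation, and the other 3 received PBS, 24 h before the brains were taken. The comparisons ask how earlier exposure and CBD change the response of the aged brain to LPS. CBD was given only to exposed mice in these groups, all mice were male, and whole brains mix vessels, blood, glia and neurons, so fewer cells of a type and less RNA per cell cannot be told apart.

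Library totals ran from 17152595 to 31150515 counts, and 20026 genes had enough counts to be tested. Levels are CPM, counts scaled to a common library size after correction by the trimmed mean of M-values (TMM). Where all libraries of a group lie above or below those of another, this is a description, and its share over all genes was not counted. With 3 or 4 libraries a group it also arose for small differences. For Ly6e every GWCBD30 library was above every CtrlVeh library at a log2 fold change of 0.07, which passed no threshold. The library CtrlVehLPS replicate 1 stood apart: its summed level of 11 cerebellar neuron markers was 854 CPM, against 2011 CPM or more in every other library, and its summed olfactory bulb and pancreatic enzyme markers were the highest of the 22 libraries. GWVeh replicate 1 had the highest red blood cell sum, at 762 CPM. Defining markers of brain endothelium were detected in every group, with summed levels of 19 markers between 261 and 356 CPM. All 3 CtrlVehLPS libraries had more olfactory bulb marker RNA (44.8 to 99.8 CPM over 8 markers) than CtrlVeh (18.3 to 23.1 CPM), and 2 of the 8 were called higher.

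All 5 genes lie on mouse chromosome 15 in GRCm38, within 612.2 kb, in a stretch that holds 9 genes of the Ly6/uPAR list. Ly6e lies on the plus strand at chr15:74955051-74959905, and the other 4 are on the minus strand: Ly6a at chr15:74994877-74998031, Ly6c1 at chr15:75044018-75048830, Ly6c2 at chr15:75108158-75111970 and Ly6h at chr15:75551268-75567255. Ly6e to Ly6c2 span 156.9 kb, and 439.3 kb separate Ly6c2 from Ly6h. In GENCODE M21 no other gene overlaps any of them, so no partner on the opposite strand shares their exons.

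Ly6c1 and Ly6c2 are close copies, and their sequences are shown because they set how far reads can be told apart. Over coding sequences of 396 bases each, 387 of 396 aligned bases (97.7%) were identical, against 83.8% between Ly6a and Ly6c1 and 59.9% between Ly6c1 and Ly6e. The first 120 coding bases of the annotated principal transcripts, counted from the A of the start codon, differ at 6 positions, given in capitals.
Ly6c1: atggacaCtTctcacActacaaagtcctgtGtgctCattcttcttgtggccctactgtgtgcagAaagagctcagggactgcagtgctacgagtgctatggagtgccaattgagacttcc
Ly6c2: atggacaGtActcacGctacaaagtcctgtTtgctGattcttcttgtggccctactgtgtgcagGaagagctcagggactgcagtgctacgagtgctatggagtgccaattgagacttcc
Of the 150-base windows of Ly6c1 transcripts, 2.29% also occurred in Ly6c2, and 19.05% of its 75-base windows occurred in Ly6c2 or Ly6a. In Ly6c2 the shares were 1.42% and 9.46%. None of the 150-base windows of Ly6a, Ly6e or Ly6h was found in another gene. How shared reads were counted is not given in the sources used here. This leaves a small part of the Ly6c1 counts uncertain and could touch most or all of the few Ly6c2 counts, since Ly6c1 was far more abundant.

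The 2 genes differ more in front of their starts than in their coding parts. RefSeq windows of 300 bases in GRCm38.p6, placed around the gene start, were at hand for Ly6c1 (chr15:75048788-75049087, minus strand) and Ly6c2 (chr15:75111922-75112221, minus strand). They are shown because one of these near-copies was readily measured in brain and the other barely. Aligned with free ends, 208 of 266 paired bases (78.2%) were identical. Capitals mark bases that differ or have no partner within the overlap.
Ly6c1: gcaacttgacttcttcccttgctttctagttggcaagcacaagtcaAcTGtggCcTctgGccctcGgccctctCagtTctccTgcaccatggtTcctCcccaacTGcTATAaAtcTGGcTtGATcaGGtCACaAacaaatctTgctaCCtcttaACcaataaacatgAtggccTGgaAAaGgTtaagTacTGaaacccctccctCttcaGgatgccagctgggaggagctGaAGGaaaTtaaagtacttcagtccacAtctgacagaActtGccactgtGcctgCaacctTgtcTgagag
Ly6c2: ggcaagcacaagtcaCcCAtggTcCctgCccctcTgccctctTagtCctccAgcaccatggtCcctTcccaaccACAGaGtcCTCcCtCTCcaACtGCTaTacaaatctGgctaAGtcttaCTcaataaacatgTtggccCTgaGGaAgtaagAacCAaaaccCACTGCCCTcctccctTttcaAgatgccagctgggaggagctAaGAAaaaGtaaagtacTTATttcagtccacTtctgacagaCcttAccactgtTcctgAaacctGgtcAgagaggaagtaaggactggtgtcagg
Neither window held GAAANNGAA, the core of an interferon-stimulated response element, or TTCNNNGAA, the pattern bound by STAT proteins, on either strand. Of 32851 promoter windows of the same length, 8.6% held the first and 8.3% the second. The absence says only that these letters are not in these windows.

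Per kilobase of exon, Ly6e was the most abundant member in brain, at 38.4 ± 4.72 CPM per kb (SD, n = 22 libraries), and Ly6h followed at 32.5 ± 3.01 CPM per kb. Ly6a reached 12.1 ± 5.93 and Ly6c1 9.65 ± 3.61 CPM per kb. Ly6c2 was near the limit of detection, at 0.0612 CPM per kb. The ranges of Ly6e and Ly6h over libraries overlapped (32.6 to 48.5 and 27.5 to 39.4 CPM per kb), as did those of Ly6a and Ly6c1 (5.59 to 25.9 and 6.01 to 18.6), so neither pair has a firm order. With the longest transcript as length, Ly6c1 (19.2 CPM per kb) came above Ly6a (15.2). Among 40 other listed family genes, Lynx1, a neuronal protein that binds nicotinic receptors, was higher than every member, at 95.8 CPM per kb. Next per kilobase came Cd59a (10.5), a complement inhibitor, Lypd6 (8.53), Lypd6b (4.67) and Lypd1 (4.36 CPM per kb).

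**Figure D1:**
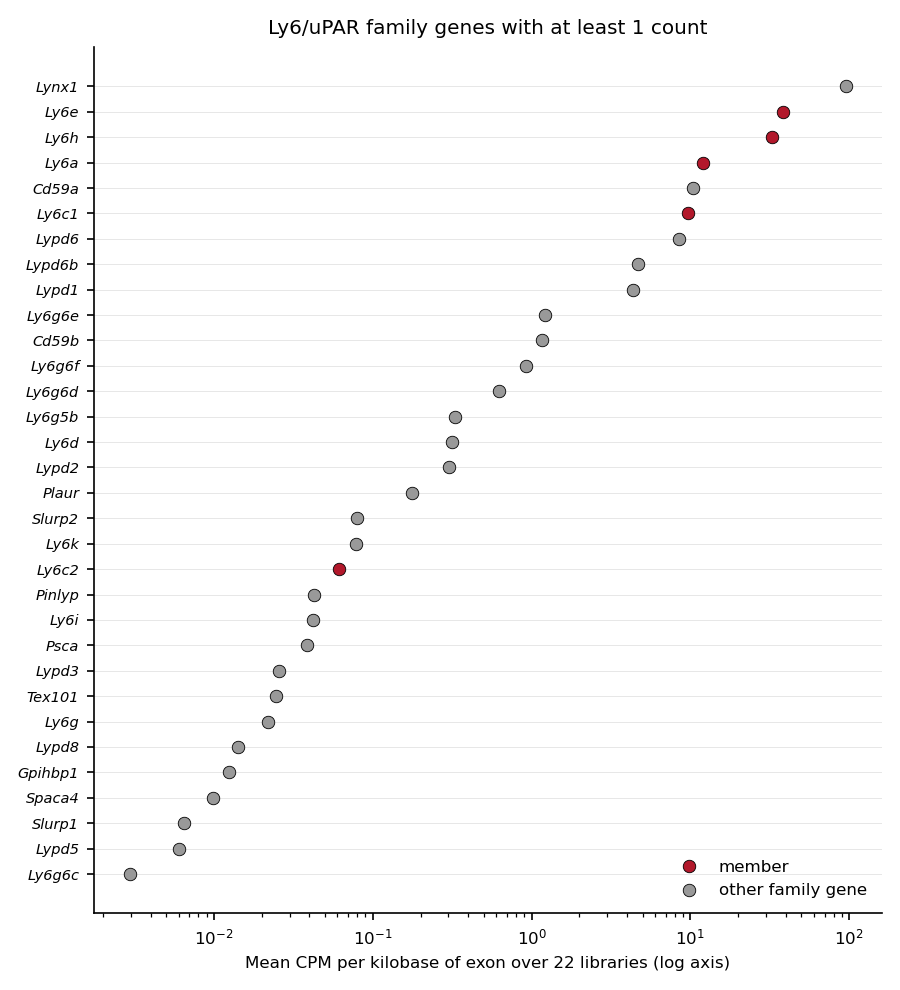
Mean level of each Ly6/uPAR family gene with at least 1 count and an annotated length, in CPM per kilobase of exon over 22 libraries (log axis). Members are red and other family genes grey. Ly6e and Ly6h rank behind Lynx1, Ly6a and Ly6c1 lie near 10 CPM per kb, and Ly6c2 lies at 0.0612 CPM per kb.

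Ly6a, the stem cell antigen 1 gene, was highest in exposed vehicle mice given LPS. Its level was 31.3, 23.2, 20.3 and 30.2 CPM in GWVehLPS and 15.6, 7.88, 10.3 and 6.73 CPM in GWVeh, with no overlap. In unexposed mice it was 18.4, 21.3 and 20.6 CPM in CtrlVehLPS and 9.73, 9.13 and 12.4 CPM in CtrlVeh, again with no overlap. In exposed mice on CBD it was 11.4, 12.9, 12.03 and 9.67 CPM in GWCBD30LPS and 9.82, 8.41, 10.2 and 8.25 CPM in GWCBD30, and these groups overlapped. The 3 PBS groups thus spanned 6.73 to 15.6 CPM, and the CBD mice given LPS lay inside that range.

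Ly6c1, the endothelial Ly6C gene, was likewise highest in GWVehLPS and next highest in CtrlVehLPS. It was at 26.7, 23.9, 21.6 and 31.3 CPM in GWVehLPS and at 16.02, 10.4, 11.9 and 10.1 CPM in GWVeh, and every LPS library was above every PBS library. CtrlVehLPS had 19.04, 20.9 and 23.9 CPM, and CtrlVeh had 13.3, 11.8 and 15.3 CPM, also without overlap. GWCBD30LPS had 13.8, 15.3, 12.9 and 10.1 CPM, and GWCBD30 had 13.1, 11.4, 13.1 and 10.1 CPM, overlapping throughout.

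Ly6e, the widely expressed interferon-inducible member, moved over a narrower range. Its level was 172, 178, 157 and 183 CPM in GWVehLPS and 148, 131, 144 and 125 CPM in GWVeh. In unexposed mice it was 168, 145 and 166 CPM in CtrlVehLPS and 128, 123 and 128 CPM in CtrlVeh. In mice on CBD it was 141, 145, 143 and 144 CPM in GWCBD30LPS and 129, 134, 134 and 133 CPM in GWCBD30. Each LPS group lay wholly above its own PBS group, and the 4 libraries of GWCBD30LPS were the closest together of the LPS groups.

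**Figure D2:**
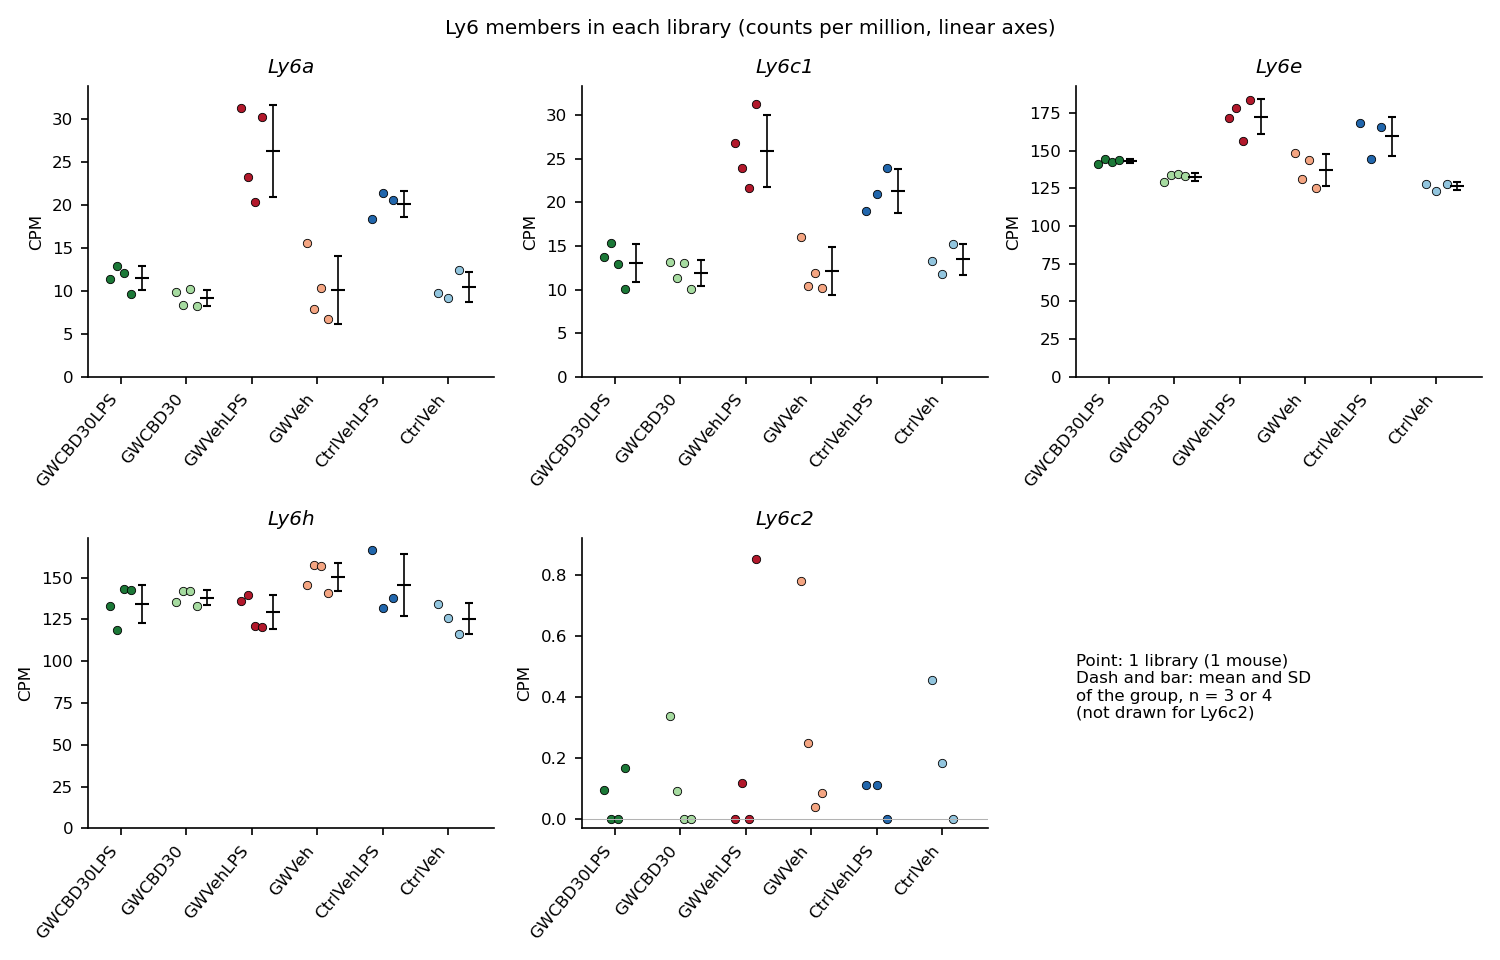
Level of each member in CPM (linear axes), 1 point a library, with the group mean and SD beside the points except for Ly6c2. For Ly6a and Ly6c1 the GWVehLPS and CtrlVehLPS libraries lie above those of all PBS groups, and GWCBD30LPS lies among the PBS libraries.

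LPS raised fitted levels of Ly6a, Ly6c1 and Ly6e in exposed vehicle mice. The log2 fold change of GWVehLPS over GWVeh was 1.37 ± 0.19 for Ly6a (± SE throughout, 2.59-fold), 1.09 ± 0.14 for Ly6c1 (2.13-fold) and 0.33 ± 0.06 for Ly6e (1.26-fold). These 3 of 4 tested members passed an adjusted p of 0.05 in edgeR's quasi-likelihood test, a threshold that 0.939% of all genes tested passed and 0.829% passed as higher. LPS responses were known when the members were chosen, with Ly6a and Ly6c1 seen to be higher, so this count is no test of them. Without GWVeh replicate 1, the PBS library with the most Ly6a, the values were 1.66 for Ly6a and 1.26 for Ly6c1.

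In unexposed mice the response had the same direction. The log2 fold change of CtrlVehLPS over CtrlVeh was 0.94 ± 0.22 for Ly6a, 0.66 ± 0.16 for Ly6c1 and 0.34 ± 0.07 for Ly6e, of which Ly6e passed the threshold. In this contrast 0.494% of genes tested passed, 0.414% as higher. The call of Ly6e ended when any one of CtrlVeh replicates 1, 2 or 3 or CtrlVehLPS replicates 1 or 3 was left out, with log2 fold changes of 0.29 to 0.34. With bulb and cerebellar scores as covariates, Ly6a stood at 1.48 and Ly6c1 at 1.17, both past the threshold, and Ly6e at 0.37, no longer past it.

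In exposed mice on CBD no member passed, in a contrast where 0.00499% of genes did. The log2 fold changes of GWCBD30LPS over GWCBD30 were 0.33 ± 0.20 for Ly6a, 0.13 ± 0.14 for Ly6c1, 0.11 ± 0.06 for Ly6e and -0.04 ± 0.07 for Ly6h. Their 95% intervals reached up to 0.74 for Ly6a and 0.42 for Ly6c1.

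**Figure D3:**
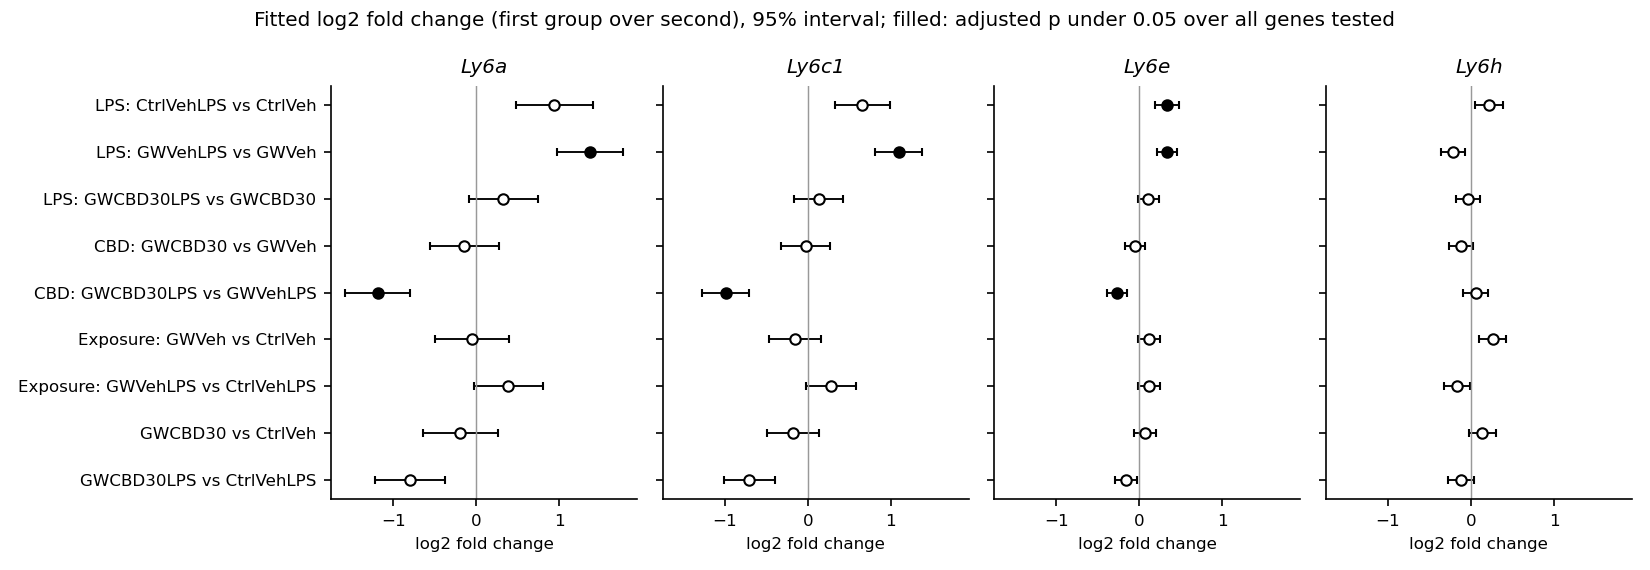
Fitted log2 fold changes of the 4 tested members in 9 comparisons of 2 groups, the first-named group over the second, with 95% intervals. Filled points passed an adjusted p of 0.05 over all 20026 genes tested, which for LPS is a description only. Ly6a and Ly6c1 lie at 1.37 and 1.09 for LPS in exposed vehicle mice and at -1.19 and -0.99 for CBD under LPS.

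Under LPS, Ly6a, Ly6c1 and Ly6e were lower in exposed mice on CBD than in those on vehicle. Ly6a averaged 11.5 ± 1.37 CPM in GWCBD30LPS and 26.2 ± 5.33 CPM in GWVehLPS (SD, n = 4 each), which gave -1.19 ± 0.19 on the log2 scale (adjusted p = 0.00337, edgeR). Ly6c1 averaged 13.02 ± 2.17 and 25.9 ± 4.16 CPM in the same groups, a log2 fold change of -0.99 ± 0.14 (adjusted p = 2.67e-04, edgeR). For each of these genes all 4 CBD libraries were below all 4 vehicle libraries. Ly6e fell by 0.27 ± 0.06 on the log2 scale, to 143 ± 1.49 CPM in GWCBD30LPS, against 173 ± 11.7 CPM in GWVehLPS (adjusted p = 0.0395, edgeR). Thus 3 of 4 tested members passed, where 0.24% of all genes did and 0.225% as lower. LPS responses, which draw on the GWVehLPS libraries, were known when the members were chosen, so this contrast is not independent of the choice.

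The fall of Ly6c1 passed in all 11 other settings. These settings include the same fit at a looser threshold of 0.1, which could not fail. In turn 9 libraries were left out, those of the 2 groups and CtrlVehLPS replicate 1. Ly6c1 passed without each of them, where its adjusted p reached at most 0.00249 (edgeR). The fall of Ly6a also passed without each of them. It missed the threshold with an endothelial score as covariate (-1.09, adjusted p = 0.0568, edgeR). Ly6e's call was less firm: it ended on leaving out any one of GWCBD30LPS replicates 1 to 4 or GWVehLPS replicates 1, 2 or 4, with log2 fold changes of -0.27 to -0.24 and adjusted p of 0.0782 to 0.168, and with the endothelial covariate (-0.27, adjusted p = 0.113). 

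Without LPS, CBD moved none of them detectably. In GWCBD30 against GWVeh the log2 fold changes were -0.14 ± 0.20 for Ly6a, -0.02 ± 0.14 for Ly6c1, -0.05 ± 0.06 for Ly6e and -0.12 ± 0.07 for Ly6h, with the lowest adjusted p at 0.770 (edgeR). No gene passed there (0% of genes tested, 1288 at an unadjusted p under 0.05, 0 by DESeq2 and 0 by limma voom). The 95% interval of Ly6a, -0.56 to 0.28, does not exclude a moderate change. Without GWVeh replicate 1 the sign turned, to 0.14 for both Ly6a and Ly6c1.

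The difference between those effects was fitted directly. It subtracts the LPS response of exposed vehicle mice, which was known when the members were chosen, so its p-values are not independent of that choice. The LPS response of exposed CBD mice minus that of exposed vehicle mice was -0.96 ± 0.20 log2 units for Ly6c1 (adjusted p = 0.0599, edgeR), -1.05 ± 0.27 for Ly6a (adjusted p = 0.436) and -0.22 ± 0.09 for Ly6e (adjusted p = 0.746), and 0.0449% of genes tested passed. Neither gene passed the threshold with all libraries, and both did without GWVeh replicate 1 (-1.12 for Ly6c1 and -1.33 for Ly6a, adjusted p = 0.00783 for both, edgeR). Ly6c1 also passed without CtrlVehLPS replicate 1, GWCBD30 replicate 4, GWCBD30LPS replicate 2 or GWVehLPS replicate 3. In all, 17 libraries were left out in turn, those of the exposed groups and CtrlVehLPS replicate 1. With each of the others of these left out neither passed, and adjusted p reached 0.251 for Ly6c1 and 0.800 for Ly6a (edgeR). Averaged over LPS and PBS, CBD against vehicle in exposed mice gave -0.50 ± 0.10 for Ly6c1 (adjusted p = 0.0697, edgeR) and -0.66 ± 0.14 for Ly6a (adjusted p = 0.137), in a contrast that 0% of genes passed (1673 at an unadjusted p under 0.05, 26 by DESeq2 and 25 by limma voom). Without GWVeh replicate 4 both passed, at -0.54 and -0.74, and Ly6c1 also without CtrlVehLPS replicate 1 or GWVehLPS replicate 3.

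Set against unexposed mice given LPS, exposed CBD mice given LPS had less Ly6a and Ly6c1 in every library. Ly6a was 9.67 to 12.9 CPM in GWCBD30LPS and 18.4 to 21.3 CPM in CtrlVehLPS, and its log2 fold change of -0.80 ± 0.20 missed the threshold (adjusted p = 0.210, edgeR). Ly6c1 was 10.1 to 15.3 CPM in GWCBD30LPS and 19.04 to 23.9 CPM in CtrlVehLPS, at -0.70 ± 0.15 (adjusted p = 0.0641, edgeR). In that contrast 0.0699% of genes passed and no member. DESeq2, limma voom, a fit with no filter on low counts and fits with bulb and cerebellar or endothelial scores as covariates took Ly6c1 past the threshold. In 5 of 11 other settings it stayed uncalled. High values of Ly6a and Ly6c1 after LPS were known when the members were chosen, so this contrast is not independent of the choice. Without LPS, GWCBD30 and CtrlVeh differed in these genes by -0.19 ± 0.22 for Ly6a and -0.18 ± 0.15 for Ly6c1, and 0% of genes passed (620 at an unadjusted p under 0.05, edgeR, 1 by DESeq2 and 0 by limma voom).

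Chemical exposure alone gave no member past the threshold. GWVeh against CtrlVeh was -0.05 ± 0.21 for Ly6a, -0.15 ± 0.15 for Ly6c1 and 0.12 ± 0.07 for Ly6e, and 0% of genes passed (1762 at an unadjusted p under 0.05, 6 by DESeq2 and 176 by limma voom). With a library left out, the value of Ly6a ran from -0.33 to 0.10, and its sign turned without CtrlVeh replicate 3 or GWVeh replicate 2 or 4. With LPS, GWVehLPS against CtrlVehLPS was 0.39 ± 0.20 for Ly6a, 0.28 ± 0.15 for Ly6c1 and 0.11 ± 0.07 for Ly6e, with adjusted p of 0.676, 0.672 and 0.727 (edgeR), where 0.00499% of genes passed. The LPS response of exposed vehicle mice minus that of controls was 0.44 ± 0.29 for Ly6a and 0.44 ± 0.21 for Ly6c1 (adjusted p = 0.727 and 0.593, edgeR). No gene passed in it (0% of 20026, 1688 at an unadjusted p under 0.05, 28 by DESeq2 and 0 by limma voom), so a larger response after exposure was not shown for these genes. Leaving out a library moved the difference of Ly6a between 0.28 and 0.72, and bulb and cerebellar covariates brought it to 0.01 for Ly6a and 0.03 for Ly6c1. Averaged over LPS and PBS, exposure gave 0.17 ± 0.15 for Ly6a and 0.06 ± 0.11 for Ly6c1, and 0.03% of genes passed.

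Ly6h, the neuronal member, had no call in any of the 13 contrasts. It was at 136, 140, 121 and 120 CPM in GWVehLPS and at 146, 158, 157 and 141 CPM in GWVeh, every LPS library being below every PBS library. In unexposed mice it was at 166, 132 and 138 CPM in CtrlVehLPS and at 135, 126 and 116 CPM in CtrlVeh, and these overlapped. GWCBD30LPS had 133, 119, 143 and 143 CPM and GWCBD30 had 135, 142, 142 and 133 CPM. The highest value of all 22 came from CtrlVehLPS replicate 1, the library poor in cerebellar RNA.

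The fitted LPS response of Ly6h was -0.22 ± 0.07 in exposed vehicle mice and 0.21 ± 0.08 in controls, neither past the threshold. Without CtrlVehLPS replicate 1 the control value was 0.10. The difference between the arms was -0.43 ± 0.11 (adjusted p = 0.295, edgeR), which ranked 23rd of 20026 genes by p. DESeq2 and a fit with no filter on low counts took that difference past the threshold at -0.43. With bulb and cerebellar covariates it was -0.24 (adjusted p = 0.841, edgeR), and the control response was 0.03. Exposure without LPS gave 0.26 ± 0.08 (adjusted p = 0.440, edgeR), with every GWVeh library above every CtrlVeh library, and exposure with LPS gave -0.17 ± 0.08 (adjusted p = 0.620). Under LPS, CBD against vehicle gave 0.06 ± 0.07 (adjusted p = 0.949, edgeR).

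Ly6c2, the monocyte gene, gave 77 counts in all 22 libraries together and did not pass the filter on low counts. Its counts were 0, 3, 0 and 16 in GWVehLPS and 17, 5, 1 and 2 in GWVeh. They were 3, 0, 0 and 3 in GWCBD30LPS and 8, 2, 0 and 0 in GWCBD30, and 3, 2 and 0 in CtrlVehLPS and 8, 4 and 0 in CtrlVeh. At this depth, where 3 counts in a library amount to 0.0975 to 0.176 CPM, no difference between groups was detectable. Fitted without the filter, its lowest adjusted p over the exposure and CBD contrasts was 0.519 (edgeR). The libraries with the most Ly6c2 were GWVehLPS replicate 4 (0.854 CPM), GWVeh replicate 1 (0.780 CPM) and CtrlVeh replicate 1 (0.455 CPM), and the same 3 had the highest summed levels of 11 neutrophil markers, at 24.4, 21.7 and 30.6 CPM. By 8 monocyte markers they ranked 4, 13 and 1 of 22, and GWVehLPS replicate 3, which ranked 2, had 0 Ly6c2 counts. Whether blood cells in these brains contributed was not tested. Ly6g, the neutrophil surface marker of the same gene cluster, had 9 counts in all.

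Ly6a and Ly6c1 varied together between mice of a group as well as between groups. After subtraction of group means, Pearson's r of their log2 CPM over the 22 libraries was 0.89, the highest either had with any of 14347 genes. This is given as a description, over libraries that share depth, tissue and the shared windows of the 2 genes. Ly6a was next most alike to Igtp, an interferon-induced GTPase (r = 0.83), and Mt1, a metallothionein (r = 0.80). Ly6c1 was next most alike to Igtp (r = 0.83) and Fam20a, a secreted pseudokinase (r = 0.78). Ly6e was most alike to Lamtor5, Sh2d5 and Add1 (r = 0.84, 0.81 and 0.77), and Ly6h to Pak6, Gm42517 and Arf3 (r = 0.92, 0.90 and 0.89). Between the pairs, r was 0.57 for Ly6a with Ly6e and -0.37 for Ly6c1 with Ly6h.

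The ratio of Ly6a to Ly6c1 counts had a higher median with LPS than with PBS in each arm, which was not tested. It was 0.938 to 1.17 in GWVehLPS and 0.664 to 0.971 in GWVeh, 0.861 to 1.02 in CtrlVehLPS and 0.731 to 0.814 in CtrlVeh, and 0.830 to 0.956 in GWCBD30LPS and 0.740 to 0.819 in GWCBD30. In CBD mice, where neither gene passed the threshold for LPS, the LPS and PBS ranges of this ratio were barely apart (0.830 against 0.819). GWCBD30 replicate 4 had only 163 Ly6a counts and 199 Ly6c1 counts. Counting error of the ratio was not estimated, and other gene pairs were not examined, so nothing is read from this gap. In controls the LPS and PBS ranges did not overlap either, and in exposed vehicle mice they did.

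**Figure D4:**
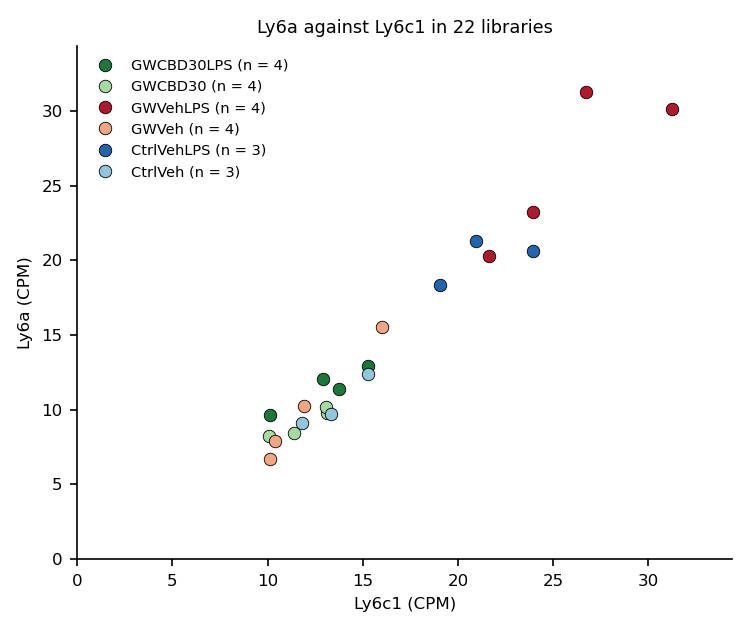
Ly6a against Ly6c1 in CPM for the 22 libraries, coloured by group. The GWVehLPS and CtrlVehLPS libraries lie at the upper right, with at least 18.4 CPM of Ly6a and 19.04 CPM of Ly6c1, and all GWCBD30LPS libraries lie with the PBS libraries, at no more than 15.6 CPM of Ly6a and 16.02 CPM of Ly6c1.

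Since Ly6a and Ly6c1 are known in endothelium, they were set against 19 other endothelial markers. Among these, 2 of 19 were higher with LPS in exposed vehicle mice, with a median log2 fold change of 0.25 over the list, against -0.0047 over all genes tested. They were Pecam1, an endothelial adhesion protein (0.69 ± 0.13), and Slco1a4, an organic anion transporter of the blood-brain barrier (0.37 ± 0.09, adjusted p = 0.00408 and 0.0452, edgeR). In controls and in CBD mice none of 19 passed, with medians of 0.08 and 0.00. Of all genes tested, 0.829% were called higher with LPS in exposed vehicle mice and 0.225% lower with CBD under LPS. Under LPS, CBD against vehicle gave 2 of 19 lower and a median of -0.11: Pecam1 (-0.82 ± 0.14, adjusted p = 0.00129) and Cldn5, a tight junction protein (-0.59 ± 0.12, adjusted p = 0.0132, edgeR).

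The summed endothelial level was 311 to 356 CPM in GWVehLPS and 265 to 305 CPM in GWVeh, and 299 to 308 CPM in GWCBD30LPS and 261 to 309 CPM in GWCBD30. Relative to the mean log2 CPM of these markers, Ly6a was at 1.05 ± 0.37 in GWVehLPS and -0.14 ± 0.48 in GWVeh (SD, n = 4 each), a difference of 1.19, and at 0.82 ± 0.04 in CtrlVehLPS and -0.07 ± 0.14 in CtrlVeh (SD, n = 3 each), a difference of 0.89. Ly6c1 differed by 0.87 and 0.60 in the same comparisons. In each, the LPS libraries were all above the PBS libraries. Under LPS, CBD against vehicle gave differences of -1.02 for Ly6a and -0.84 for Ly6c1 relative to these markers, with no overlap. Before the markers were taken off, the fitted values were -1.19 and -0.99. For Ly6e the differences were 0.10 for LPS in exposed vehicle mice and -0.12 for CBD under LPS, with overlap in both, and 0.27 for LPS in controls, where all LPS libraries were higher.

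**Figure D5:**
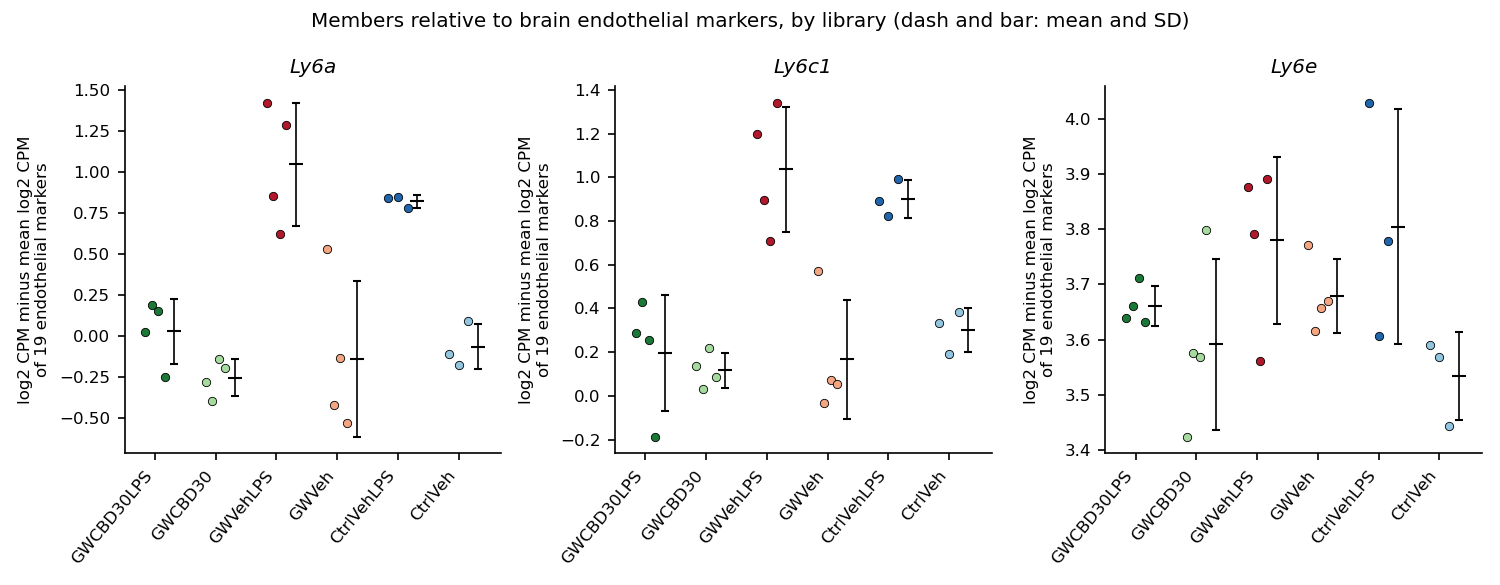
Log2 CPM of Ly6a, Ly6c1 and Ly6e minus the mean log2 CPM of 19 endothelial markers, 1 point a library, with group mean and SD. Ly6a and Ly6c1 remain higher in every GWVehLPS and CtrlVehLPS library than in any library of the other groups, of which GWVeh replicate 1 comes nearest (0.53 for Ly6a and 0.57 for Ly6c1). For Ly6e, LPS and PBS libraries overlap in exposed mice and do not in controls.

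Markers of other cells moved as follows, and their part in the results was not tested. Of 9 microglial markers, 6 were called higher with LPS in exposed vehicle mice, 6 in controls and none in CBD mice. With CBD under LPS, 2 were called lower. In these contrasts 0.939%, 0.494%, 0.00499% and 0.24% of all genes tested passed, in that order. The median log2 fold changes of the microglial list were 0.52, 0.69, 0.21 and -0.30 in the same order. In CBD mice all 9 markers had positive values for LPS. Their sum was 268 to 346 CPM in GWVehLPS and 197 to 220 CPM in GWVeh, 242 to 268 CPM in GWCBD30LPS and 203 to 228 CPM in GWCBD30, and 307 to 320 CPM in CtrlVehLPS and 201 to 210 CPM in CtrlVeh. Sums of 8 monocyte markers overlapped between LPS and PBS in all arms (21.8 to 30.2 CPM in GWVehLPS and 22.7 to 25.7 CPM in GWVeh), with F10 at 0 in GWVeh and CtrlVehLPS. Those of 11 neutrophil markers overlapped too (12.4 to 24.4 CPM in GWVehLPS and 8.49 to 21.7 CPM in GWVeh), with Cxcr2 at 0 in GWCBD30 and Elane at 0 in CtrlVehLPS. Of the 7 neutrophil markers tested, 1 was called higher with LPS in exposed vehicle mice, where their median log2 fold change was -0.65. None was called with LPS in controls or in CBD mice, or with CBD under LPS. Sums of 5 red blood cell markers were 229 to 356 CPM in GWCBD30LPS and 115 to 221 CPM in GWVehLPS, with no overlap, and 127 to 762 CPM in GWVeh; none of the 5 was called, and their median log2 fold change was 0.75 for CBD under LPS and -1.12 for LPS in exposed vehicle mice. Sums of 8 pericyte markers were 114 to 132 CPM in GWVehLPS and 109 to 135 CPM in GWVeh.

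Interferon-stimulated genes, the class to which Ly6a, Ly6c1 and Ly6e are often assigned, included genes called in the same contrasts. Of 37 listed genes, none of them a member, 8 were higher with LPS in exposed vehicle mice and none lower, with a median log2 fold change of 0.65, against -0.0047 over all genes tested. Ifitm3, a membrane protein that restricts viral entry, rose by 1.30 ± 0.17, Irf7, a transcription factor of the interferon response, by 1.47 ± 0.33 and Trim30a by 0.94 ± 0.22 (adjusted p = 6.62e-05, 0.0215 and 0.0215, edgeR). None of 37 passed in controls (median 0.21) or in CBD mice (median 0.12). Under LPS, CBD against vehicle gave 2 lower, none higher and a median of -0.46: Ifitm3 (-1.02 ± 0.17, adjusted p = 0.00233) and Oasl2 (-0.79 ± 0.17, adjusted p = 0.0352, edgeR). Of the list, Ifitm3 alone passed in the test of the difference in LPS response between CBD and vehicle mice (-1.29 ± 0.25, adjusted p = 0.0402, edgeR). Of all genes tested, 0.829% were called higher with LPS in exposed vehicle mice and 0.225% lower with CBD under LPS. In the test of the difference 0.0449% passed. These contrasts share the GWVehLPS libraries with the members' results, and the list was chosen with earlier results of these data known. Its counts and p-values are therefore not independent of the members' results.

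Lists of genes for interferon signalling, nicotinic receptors and GPI anchors gave no call. Of 10 genes for interferon receptors and their signalling proteins, none passed in the LPS contrasts, with medians of 0.11 in exposed vehicle mice, 0.06 in controls and 0.01 in CBD mice. Stat3 was at 0.16 ± 0.07 and Ifngr1, a chain of the interferon gamma receptor, at 0.24 ± 0.09 in exposed vehicle mice. Of 9 nicotinic receptor subunits, whose traffic Ly6h and Lynx1 are known to affect, none passed for LPS, and the medians were -0.04, 0.17 and 0.11 in the same order of arms. Of 26 tested genes that build or attach the GPI anchor, none passed, and their medians lay between -0.04 and 0.03. 

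No other gene of the family was called. Of 40 listed, 12 had enough counts to be tested, 10 had 0 counts in all libraries, and none passed in any of 13 contrasts (19 of 156 gene and contrast pairs had an unadjusted p under 0.05, edgeR). Their median log2 fold change for LPS was -0.08 in exposed vehicle mice, 0.01 in controls and 0.15 in CBD mice. Lynx1 was at 0.10 ± 0.06 for LPS in exposed vehicle mice and -0.03 ± 0.06 for CBD under LPS, Lypd6, which modulates nicotinic receptors, at -0.01 ± 0.08 and 0.11 ± 0.08, and Lypd1 at -0.16 ± 0.12 and 0.14 ± 0.12. Plaur, the urokinase receptor, chosen here after its values were seen, had fitted LPS values of 1.37 ± 0.48 in exposed vehicle mice, 1.40 ± 0.60 in controls and 1.16 ± 0.52 in CBD mice (adjusted p = 0.215, 0.335 and 0.565, edgeR), at a mean level of 0.466 CPM.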

How the data were processed

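Whole brains of 22 mice were measured by RNA-seq of poly(A)-enriched, stranded, paired 150-base libraries (RNA integrity number 8.5 or more), per the labels' protocols. The deposited values were raw counts of reads per gene, made by the authors from reads aligned to GRCm38/mm10, per the series design text. Aligner, counter, strand setting and annotation release: not given in the sources used here. The table had 56748 rows, none without a gene name, and 0 columns of other samples.

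Counts were tested as deposited with edgeR 4.0.16 in R 4.3.3 (TMM scaling, filterByExpr by group, robust quasi-likelihood F test, two-sided, 6 group means over all libraries, 16 residual degrees of freedom), with Benjamini-Hochberg adjustment over 20026 genes, a threshold of 0.05 and 13 contrasts. The fit was tested on simulated data. Log2 CPM used a prior count of 2, fitted intervals are 95%, and the floor of 3 counts covers counting error only. Alternatives used DESeq2 1.42.0, limma 3.58.1 (voom), other scalings, filters and covariates, and each library left out. A library was left out only in contrasts that include its group, and CtrlVehLPS replicate 1 in all contrasts. Members and lists were chosen with earlier results of these data known. Named were all members, the 3 other family genes highest in CPM, up to 3 genes of a list with the smallest p in a contrast, and the 3 genes most correlated with each tested member. Exon lengths and positions came from GENCODE M21 and promoter windows from RefSeq GRCm38.p6, aligned with Biopython 1.88. No 2 libraries of the same group agreed within sampling noise, and libraries of different groups were not compared in this way.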

Additional observations from a re-analysis of the deposited data

Results flagged for a closer look

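Ly6c2 in GWVehLPS replicate 4 was flagged because it lay far from the other libraries of its group, at 0.854 CPM, against 0 to 0.118 CPM in the other 3. Its gap to the nearest library was 0.862 of the group's range, above Dixon's 95% critical value of 0.829 for 4 samples. The value rests on 16 counts. Of 20 groups and genes examined this was the one flagged. Chance flags about 1 in 20 only where values are normally distributed, which counts this low are not. How often chance flags such counts was not worked out.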

How the results depend on the processing

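No called result of a member changed sign in the settings run; some of those not called did. With bulb and cerebellar covariates, Ly6c1 was -0.09 for exposure with LPS (0.28 as reported), 0.03 for CBD without LPS (-0.02) and -0.10 for exposure averaged over LPS states (0.06), Ly6a was -0.01 for the last (0.17), and Ly6h was 0.05 for exposed CBD mice against controls under LPS (-0.11). With voom, Ly6c1 was 0.03 for CBD without LPS, Ly6h 0.01 for exposed CBD mice against controls under LPS and Ly6e 0.08 for the exposed minus control LPS response (-0.00). The LPS call of Ly6e in controls was lost with only the groups of the contrast fitted (0.33) and with bulb and cerebellar covariates (0.37), and ranged from 0.29 to 0.40 with a library left out. That of Ly6a in exposed vehicle mice was lost with only the groups of the contrast (1.37). With an endothelial covariate the CBD effect under LPS lost its call for Ly6a (-1.09) and Ly6e (-0.27), and with a library left out Ly6e ranged from -0.31 to -0.24. The cause was not tested.

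Calls were gained without a filter on low counts, with DESeq2, voom, bulb and cerebellar covariates or a threshold of 0.1. For LPS in controls they were, for Ly6c1, 0.66, 0.66, 0.70, 1.17 and 0.66, and for Ly6a 0.94, 0.94, 1.06, 1.48 and 0.94, with 0.94 with only the groups of the contrast. For CBD averaged over LPS states they were, for Ly6c1, -0.50, -0.50, -0.49, -0.52 and -0.50 (-0.54 to -0.42 with a library left out), and for Ly6a -0.66, -0.66, -0.64 and -0.68 without the threshold change (-0.74 to -0.52). For the difference in LPS response between CBD and vehicle mice they were, for Ly6c1, -0.97, -0.97, -1.05, -1.10 and -0.96 (-1.12 to -0.86), and for Ly6a -1.05 without a filter and -1.20 with the covariates (-1.33 to -0.89). For exposed CBD mice against controls under LPS they were, for Ly6c1, -0.70, -0.70, -0.72, -1.16 and -0.70, with -0.69 with the endothelial covariate, and for Ly6a -0.80 without a filter, -0.88 with voom, -0.80 with only the groups of the contrast and -1.28 with the covariates. Ly6h gained calls with voom for LPS in exposed vehicle mice (-0.26) and exposure without LPS (0.26), and for the exposed minus control LPS response without a filter (-0.43) and with DESeq2 (-0.43). The contrasts in which Ly6a and Ly6c1 gained calls all draw on LPS values, which were known when the members were chosen.

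With the longest transcript as length, levels were 63.7 CPM per kb for Ly6e, 49.0 for Ly6h and 19.2 for Ly6c1. Replicate numbers did not pair LPS with PBS libraries within an arm: none of 11 same-numbered pairs had a correlation over 0.1 (-0.065 to 0.085). Same-numbered libraries of different arms were not compared. A fit with the replicate block gave -1.19 for Ly6a and -0.997 for Ly6c1 for CBD under LPS. The number of genes called over all alternatives, beside the value reported, was 22 to 158 (48) for CBD under LPS, 20 to 694 (99) for LPS in controls, 68 to 359 (188) in exposed vehicle mice and 0 to 87 (1) in CBD mice, 0 to 176 (0) and 0 to 118 (1) for exposure without and with LPS, 0 to 1 (0) and 0 to 206 (14) for exposed CBD mice against controls without and with LPS, 0 to 44 (6) and 0 to 76 (0) for exposure and CBD averaged over LPS states, and 0 to 82 (0) and 2 to 42 (9) for the differences in LPS response by exposure and by CBD. Depth limits Ly6c2 alone among the members.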
